A study of Rattus norvegicus with 7 samples.

Results

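The splicing factors and heterogeneous nuclear ribonucleoproteins (hnRNPs) of rat oral epithelial ROE2 cells were followed over 12 h of exposure to sodium fluoride (NaF). The members were picked by gene symbol alone, and no signal entered the rule. They were the probe sets whose array annotation gave a single gene symbol beginning with Srsf, Hnrnp, Snrp, Snrn, Sf3a, Sf3b, Prpf or U2af. These were 110 of the 31099 probe sets on the array and covered 67 genes. A further 8 probe sets carried such a symbol together with another symbol and were left out, among them probe sets for Hnrnpk, Snrpc, Snrpg and Srsf3. ROE2 is an immortalized line from the tongue of an 18-day-old fetus of a transgenic Wistar rat, and the cells of every group carried the same temperature-sensitive SV40 large T-antigen. Before treatment the cells were kept for 24 h at 37°C with 2% fetal bovine serum, and treatment was also at 37°C. The NaF group received 2 mM NaF for 3, 6 or 12 h, and the vehicle group received sterilized water at 1% by volume for 0, 3, 6 or 12 h. Each of the 7 Affymetrix rat genome arrays held RNA pooled from 3 independent experiments, so every combination of treatment and time was 1 array of 1 cell line.

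Splicing factors remove introns from pre-mRNA. Small nuclear ribonucleoproteins (snRNPs), most of them built on a ring of Sm proteins, recognize the splice sites and join into the spliceosome. SR proteins and hnRNPs bind the transcript beside the splice sites and promote or repress their use. Genes of both families are known for spliced variants of their own transcripts.

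Signals are log2 values that the authors had normalized, so a difference of 1 is 2-fold. Tests were made on the probe sets with the highest maximum signal, as many as the study counted as expressed. Of the members, 89 probe sets of 63 genes were tested, and 21 lay below this range. The dimmest tested member reached 7.39 on its brightest array. One member, an Hnrnpu probe set (1372823_at), was tested only through its signal on NaF arrays. Without it 5 of 88 members were called higher at 6 h and 26 at 12 h, with the other counts of calls against vehicle as given below. This probe set also counts among the higher hnRNP calls at 6 and 12 h and the members past 1.5-fold higher at 12 h. It counts as well among members wholly above vehicle and members higher at 12 h than at 3 h of NaF. Snrpn, Srsf3, Srsf7 and the pseudogene Srsf7-ps4 had no tested probe set. The only member probe set of Srsf3, an SR protein (1379010_at), read 2.49, 2.37 and 2.62 on the NaF arrays and 2.88, 2.33, 2.35 and 2.49 on the vehicle arrays. Signal annotated to Srsf3 together with another symbol was left out, so these values do not give the level of the gene. With limma, each NaF array was set against the 4 vehicle arrays' mean, and a member was called higher or lower where the Benjamini-Hochberg adjusted p over all tested probe sets was under 0.05. Changes from this fit are given with their standard error (SE), and they are measured against the vehicle mean, whereas same-time differences are the NaF array minus the vehicle array of that time and have no test. Since a NaF time had 1 array, its error was taken from the vehicle arrays, and p-values measure the spread between pooled vehicle arrays over time and not between NaF experiments.

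Between the vehicle arrays the pairwise correlation over all probe sets was 0.9961 to 0.9987, and the array medians ranged from 5.32 to 5.35. Vehicle signals of the tested members at 3, 6 and 12 h differed from those at 0 h by -0.65 to 0.54, with a median size of 0.07. A single member passed 1.5-fold against its own 0 h signal in the vehicle course, the Hnrnpa2b1 probe set 1395561_at. It read 9.67 on the NaF array and 9.45 on the vehicle array at 3 h, below the 10.10 to 10.29 of the other 5 arrays. Between later vehicle times, the Hnrnpa2b1 probe set 1373540_at read 7.56 at 3 h and 8.16 at 12 h. The median SD of a member over the vehicle arrays was 0.06 (n = 4), against 0.08 for all tested probe sets. The gap between the 3′ and 5′ probe sets of beta-actin, a measure of RNA integrity, was 1.77 to 2.39 on the NaF arrays and 1.53 to 2.83 on the vehicle arrays, and in each group it was largest at 3 h. Of 12 epithelial marker genes 10 were tested, with a median vehicle signal of 11.97, and none of the fibroblast, leukocyte or endothelial marker genes reached the tested range. At 12 h of NaF 7 of these 10 epithelial markers were called lower (70.0%, against 30.9% of all tested probe sets) and 0 higher (against 30.0%). Of 7 skeletal muscle marker genes only Myh1, a myosin heavy chain, was tested, and 1, 4 and 2 of its 5 probe sets were called higher at 3, 6 and 12 h. Its brightest probe set read 10.23, 10.44 and 10.17 on the NaF arrays at 3, 6 and 12 h, against 9.86, 9.81, 9.48 and 9.52 on the vehicle arrays at 0, 3, 6 and 12 h. The mean signal over the probe sets of the 7 muscle genes was 6.27 to 6.49 on the NaF arrays and 6.12 to 6.26 on the vehicle arrays, and Myod1, Ckm, Acta1, Des, Myh2 and Myh4 lay below the tested range. The part of these markers in the splicing factor values was not tested, and in such bulk RNA fewer cells and less RNA per cell cannot be told apart.

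Few members were called at 3 h. The shares of lower calls at 6 h and of higher calls at 12 h lay near those of all tested probe sets. Higher calls at 6 h and lower calls at 12 h made up smaller shares than over all tested probe sets. These shares were not compared by a test. At 3 h 1 of the 89 tested members was called higher (1.12%, against 2.97% of all tested probe sets) and 4 were called lower (4.49%, against 6.11%). The higher member was Hnrnpa3 (1374405_at), and the lower ones were Prpf4b (1376010_at), Prpf4, Snrnp70 and Sf3b5. At 6 h 6 were called higher (6.74%, against 17.3%) and 23 lower (25.8%, against 21.8%). At 12 h 27 members of 20 genes were called higher (30.3%, against 30.0%) and 19 members of 16 genes lower (21.3%, against 30.9%). The same-time differences of the members had a median of -0.05 at 3 h, -0.06 at 6 h and 0.01 at 12 h, beside -0.03, 0.00 and 0.00 over all tested probe sets. The 3 h calls rested on few arrays, since no member was called higher without the vehicle array of 0, 3 or 6 h, and 0 members were called lower without that of 6 or 12 h and 1 without that of 3 h. Higher calls at 6 h numbered 3 without the vehicle array of 6 h.

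Sizes were moderate. Against vehicle at the same time, 1 member stood more than 1.5-fold higher at 3 h (1.12%, against 1.67% of all tested probe sets) and 1 lower (1.12%, against 3.71%). At 6 h 1 was past 1.5-fold higher (1.12%, against 6.31%) and 7 lower (7.87%, against 9.90%), and at 12 h 13 were higher (14.6%, against 15.2%) and 5 lower (5.62%, against 14.9%). The member above 1.5-fold at 3 and 6 h was Hnrnpa3 (1374405_at), and the member below it at 3 h was Prpf4b (1376010_at). At 12 h the 5 below it were probe sets of Hnrnpa2b1, Hnrnpa0, Srsf1, Hnrnpa1 and Prpf19. No tested member passed 2.5-fold, the factor used in the study, at any time in either direction.

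**Figure D1:**
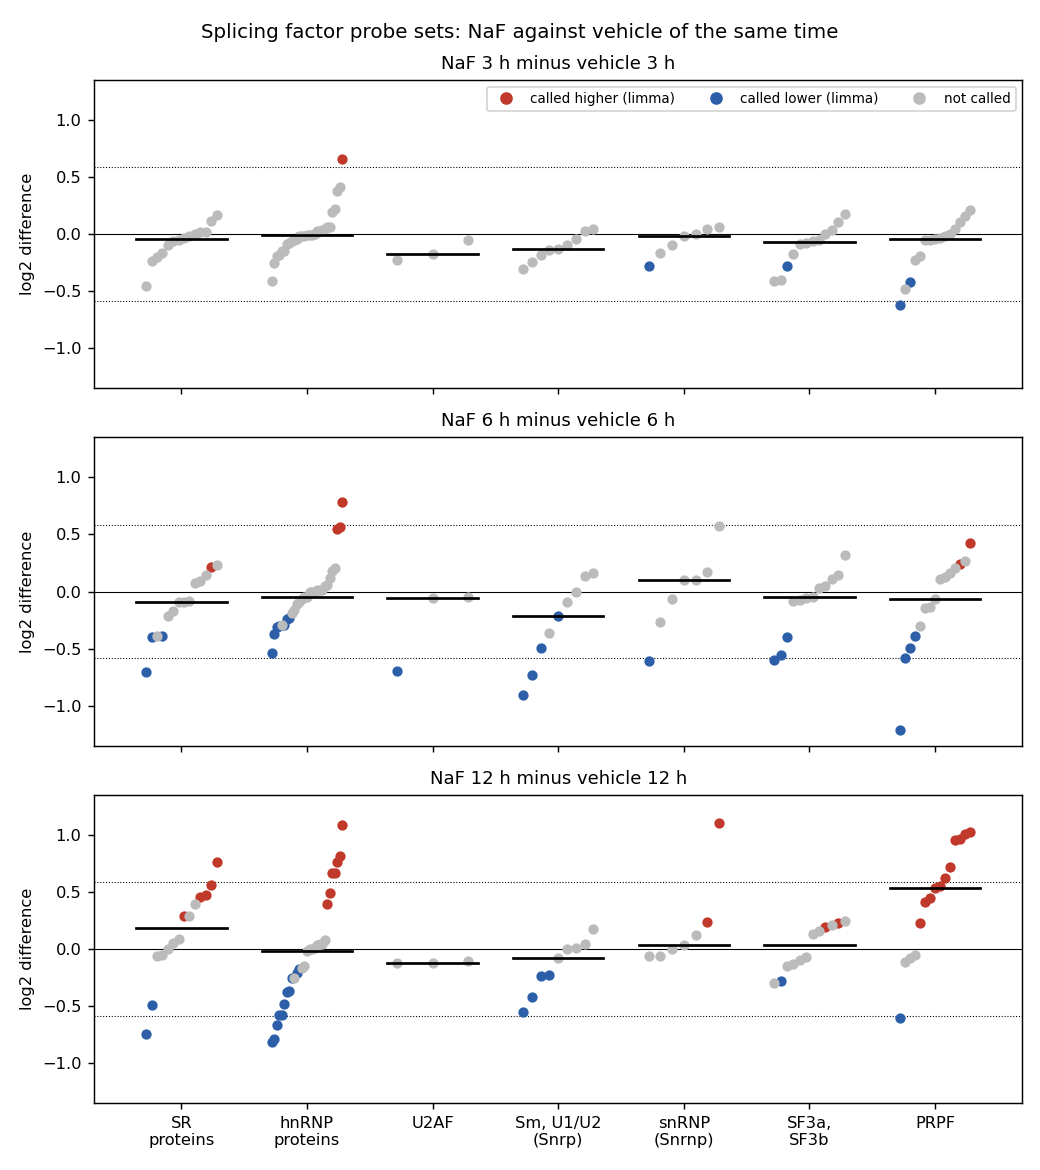
Same-time log2 differences (NaF minus vehicle) of the 89 tested splicing factor probe sets at 3, 6 and 12 h, by protein group; colours give the limma call against the 4 vehicle arrays, black bars the group medians and dotted lines 1.5-fold. Points lay below 0 in several groups at 6 h, and at 12 h the PRPF group had a median of 0.54 while the hnRNPs spread from -0.81 to 1.09.

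The upstream DNA of 6 genes with distinct courses is shown so that their sequences can be read beside the values that follow. Snrpd1 and U2af1 were lowest at 6 h of NaF, Prpf4b had a probe set at its minimum at 6 h and above vehicle at 12 h, Prpf38b and Srsf11 were highest at 12 h, and the brightest probe set of Hnrnpa2b1 was lowest at 12 h. Each run is the 150 bases before the annotated gene start in RefSeq (GRCr8), 5′ to 3′ on the strand of the gene, and capitals mark matches on either strand to the motifs CCGGAAG (ETS), CCAAT (NF-Y), GGGCGG (SP), CACGTG (E-box) and TGACGT (cyclic AMP response element core).
Snrpd1 (chr18:1969524-1969673, plus strand): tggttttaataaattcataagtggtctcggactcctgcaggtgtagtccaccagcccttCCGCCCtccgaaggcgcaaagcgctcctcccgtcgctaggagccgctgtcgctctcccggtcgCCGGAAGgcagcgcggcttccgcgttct
U2af1 (chr20:9755095-9755244, minus strand): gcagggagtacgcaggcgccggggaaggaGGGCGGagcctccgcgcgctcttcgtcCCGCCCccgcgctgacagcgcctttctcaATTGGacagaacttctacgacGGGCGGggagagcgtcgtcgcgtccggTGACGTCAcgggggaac
Prpf4b (chr17:30224921-30225070, minus strand): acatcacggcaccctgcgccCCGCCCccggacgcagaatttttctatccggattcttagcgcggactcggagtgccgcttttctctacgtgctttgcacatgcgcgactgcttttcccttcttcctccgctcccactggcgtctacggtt
Prpf38b (chr2:199250339-199250488, minus strand): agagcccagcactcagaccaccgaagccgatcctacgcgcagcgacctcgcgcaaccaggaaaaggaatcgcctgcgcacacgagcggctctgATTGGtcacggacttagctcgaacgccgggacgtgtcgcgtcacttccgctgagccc
Srsf11 (chr2:249760259-249760408, minus strand): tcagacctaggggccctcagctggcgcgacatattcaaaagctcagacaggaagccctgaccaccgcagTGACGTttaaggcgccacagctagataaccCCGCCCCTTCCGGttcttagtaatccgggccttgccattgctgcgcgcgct
Hnrnpa2b1 (chr4:81875887-81876036, minus strand): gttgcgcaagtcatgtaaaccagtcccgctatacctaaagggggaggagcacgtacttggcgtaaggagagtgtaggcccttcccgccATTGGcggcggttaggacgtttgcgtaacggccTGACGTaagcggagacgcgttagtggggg
U2af1 held 3 matches to GGGCGG and 1 to CCAAT, and its 2 matches to TGACGT overlapped in the palindrome TGACGTCA. In Srsf11 a match to GGGCGG ran directly into a match to CCGGAAG, both on the opposite strand, and Snrpd1 held the same pair of motifs farther apart. Of the 67 member genes 63 had such a sequence, and CCGGAAG was found in 16 of them (25.4%), against 6.24% of the 27457 genes in the table. CCAAT was found in 26 (41.3%, against 23.7%), GGGCGG in 29 (46.0%, against 27.8%), TGACGT in 11 (17.5%, against 5.53%) and CACGTG in 6 (9.52%, against 3.93%). The 27457 genes were not limited to those expressed in these cells, so the shares do not set splicing factors apart from other expressed genes. They are descriptions of the letters in the window and were not tested.

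Among the SR proteins, 14 probe sets of 8 genes were tested, and they moved in opposite directions. At 3 h 0 were called, at 6 h 1 was called higher and 3 lower (7.14% and 21.4%, against 17.3% and 21.8% of all tested probe sets), and at 12 h 5 were called higher and 2 lower (35.7% and 14.3%, against 30.0% and 30.9%), with median same-time differences of -0.05, -0.09 and 0.19. Srsf1, which binds exonic enhancers and recruits the U1 snRNP, fell on both of its probe sets. Its brighter probe set (1371581_at) read 10.85, 10.63 and 10.62 on the NaF arrays at 3, 6 and 12 h, against 10.95, 10.94, 11.02 and 11.10 on the vehicle arrays at 0, 3, 6 and 12 h. The 6 and 12 h NaF arrays lay below every vehicle array, while the 3 h NaF array was 0.09 below the vehicle array of its time. The change was -0.38 ± 0.08 at 6 h (adjusted p = 0.0176, limma) and -0.39 ± 0.08 at 12 h (adjusted p = 0.00955). The second probe set of Srsf1 (1374072_at) read 8.99, 8.65 and 8.52 on the NaF arrays at 3, 6 and 12 h, against 9.32, 9.45, 9.36 and 9.26 on the vehicle arrays at 0, 3, 6 and 12 h. All 3 NaF arrays lay below all 4 vehicle arrays, and the change at 12 h was -0.83 ± 0.08 (limma, adjusted p = 0.000689).

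Srsf11, which associates with U2AF at the 3′ splice site, rose late. Its brighter probe set (1368212_at) read 10.64, 10.70 and 11.12 on the NaF arrays at 3, 6 and 12 h, against 10.47, 10.47, 10.55 and 10.56 on the vehicle arrays at 0, 3, 6 and 12 h, so that every NaF array exceeded every vehicle array and the 12 h array stood apart from the others. The change at 12 h was 0.60 ± 0.07 (limma, adjusted p = 0.000969), and it was 0.78 ± 0.06 on the second probe set (1382056_at, adjusted p = 0.00037). Srsf4, a long SR protein that promotes exon inclusion, gave 8.81, 8.91 and 9.41 on the NaF arrays at 3, 6 and 12 h, against 8.94, 8.97, 8.84 and 8.96 on the vehicle arrays at 0, 3, 6 and 12 h. Its 3 and 6 h NaF signals differed by -0.16 and 0.08 from the vehicle arrays of the same times, and its rise at 12 h was 0.49 ± 0.08 (limma, adjusted p = 0.00277). Both tested probe sets of Srsf10, an SR protein that represses splicing when dephosphorylated, rose at 12 h, by 0.34 ± 0.10 and 0.56 ± 0.11 (adjusted p = 0.033 and 0.00637).

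Srsf2, an SR protein that concentrates in nuclear speckles, dipped instead. Its brighter probe set (1371838_at) read 12.01, 11.93 and 12.26 on the NaF arrays at 3, 6 and 12 h, against 12.31, 12.21, 12.32 and 12.20 on the vehicle arrays at 0, 3, 6 and 12 h. The 6 h NaF array was the lowest of the 7, with a change of -0.33 ± 0.07 (limma, adjusted p = 0.0178), and the 12 h array lay within the vehicle range. The other probe set of Srsf2 had same-time differences of -0.24, -0.39 and 0.29 at 3, 6 and 12 h and was called at none of these times. No probe set of Srsf5, Srsf6 or Srsf9 was called, and their same-time differences lay between -0.21 and 0.39.

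The hnRNPs, with 29 tested probe sets of 17 genes, moved in both directions. Calls were 1 higher and 0 lower at 3 h (3.45% and 0%, against 2.97% and 6.11% of all tested probe sets). They were 3 higher and 7 lower at 6 h (10.3% and 24.1%, against 17.3% and 21.8%) and 7 higher and 11 lower at 12 h (24.1% and 37.9%, against 30.0% and 30.9%). The median same-time difference stayed at -0.01, -0.04 and -0.01. Hnrnpa2b1, which binds exon silencers and transported RNAs, read 11.64, 11.44 and 10.72 on the NaF arrays at 3, 6 and 12 h, against 11.64, 11.61, 11.53 and 11.53 on the vehicle arrays at 0, 3, 6 and 12 h on its brightest probe set (1398883_at). The 3 and 6 h NaF arrays differed by 0.02 and -0.09 from vehicle, and the 12 h array fell by 0.81 from vehicle 12 h, which was 0.57 of its level. The change was -0.86 ± 0.07 (limma, adjusted p = 0.000414). The other 3 tested probe sets of Hnrnpa2b1 had differences of -0.01, 0.04 and 0.00 at 12 h and were not called, so the fall was measured by 1 of 4 probe sets.

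Hnrnpa0, an hnRNP that binds AU-rich elements of mRNAs, declined step by step. It read 11.55, 11.37 and 10.92 on the NaF arrays at 3, 6 and 12 h, against 11.63, 11.70, 11.68 and 11.71 on the vehicle arrays at 0, 3, 6 and 12 h, with every NaF array below every vehicle array and the 12 h array lowest. The change was -0.31 ± 0.06 at 6 h (adjusted p = 0.0132, limma) and -0.76 ± 0.06 at 12 h (adjusted p = 0.000413). Hnrnpm, which represses and promotes exons through GU-rich sites, read 10.26, 10.25 and 9.82 on the NaF arrays at 3, 6 and 12 h, against 10.31, 10.31, 10.42 and 10.40 on the vehicle arrays at 0, 3, 6 and 12 h. Here the 3 and 6 h NaF arrays differed by -0.05 and -0.17 from vehicle, and only the 12 h array was called (change -0.54 ± 0.07, adjusted p = 0.00182). Hnrnpll, known in lymphocytes as a regulator of CD45 splicing, had a change of -0.49 ± 0.06 at 12 h (adjusted p = 0.00122). Hnrnpul1, an hnRNP U-like protein, had one of -0.34 ± 0.08 (adjusted p = 0.0114).

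Hnrnpd, also known as AUF1, which directs AU-rich mRNAs to decay, had its lowest signal at 6 h. It read 9.25, 8.90 and 9.20 on the NaF arrays at 3, 6 and 12 h, against 9.47, 9.43, 9.43 and 9.45 on the vehicle arrays at 0, 3, 6 and 12 h. The vehicle arrays lay between 9.43 and 9.47, and all NaF arrays lay below them. The change was -0.55 ± 0.06 at 6 h (adjusted p = 0.00169, limma) and -0.24 ± 0.06 at 12 h (adjusted p = 0.0133).

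Several hnRNPs rose at 12 h. Hnrnpdl, a paralog of Hnrnpd, showed the largest rise among them on its brighter probe set (1372810_at), which read 10.13, 10.38 and 10.91 on the NaF arrays at 3, 6 and 12 h, against 9.93, 9.94, 9.82 and 9.82 on the vehicle arrays at 0, 3, 6 and 12 h. All NaF arrays exceeded all vehicle arrays, and the 12 h NaF array was 2.13 times the vehicle array of that time. The change was 0.50 ± 0.08 at 6 h (adjusted p = 0.00537, limma) and 1.04 ± 0.08 at 12 h (adjusted p = 0.000318). Hnrnpc, which packages nascent transcripts at uridine tracts, read 11.71, 11.93 and 12.36 on the NaF arrays at 3, 6 and 12 h, against 11.76, 11.73, 11.75 and 11.87 on the vehicle arrays at 0, 3, 6 and 12 h. Its rise of 0.58 ± 0.08 at 12 h was called (limma, adjusted p = 0.00161), and its 3 h array was the lowest of the 7. Hnrnph3, of the family that binds G tracts, rose at 12 h by 0.68 ± 0.08 on its brighter probe set (adjusted p = 0.00113), and its other probe set (1395455_at) was not called.

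Recognition of the 3′ splice site and branch point falls to U2AF and to the SF3 complexes of the U2 snRNP. U2af1, the U2AF subunit that reads the AG at the intron's end, read 10.42, 9.95 and 10.53 on the NaF arrays at 3, 6 and 12 h, against 10.44, 10.65, 10.64 and 10.65 on the vehicle arrays at 0, 3, 6 and 12 h. The NaF array of 6 h was the lowest of the 7, while the 12 h array lay within the vehicle range, of which the 0 h array was itself the lowest. The change at 6 h was -0.65 ± 0.10 (limma, adjusted p = 0.00571). U2af2, the subunit that binds the polypyrimidine tract, had same-time differences of -0.05, -0.05 and -0.12 and was not called, and U2af1l4, a relative of U2af1, was not called either.

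Of the SF3 proteins, 12 probe sets of 9 genes were tested. Calls were 0 higher and 1 lower at 3 h (0% and 8.33%, against 2.97% and 6.11% of all tested probe sets). The 6 h counts were 0 higher and 3 lower (0% and 25%, against 17.3% and 21.8%). Those at 12 h were 2 higher and 1 lower (16.7% and 8.33%, against 30.0% and 30.9%). The 3 called lower at 6 h belonged to Sf3a1, Sf3a3 and Sf3b3. The other tested probe set of Sf3a1 (1389328_at) had a same-time difference of 0.11 at 6 h and was not called. Sf3a3, a subunit that joins SF3a to the U2 snRNP, read 8.29, 8.20 and 8.52 on the NaF arrays at 3, 6 and 12 h, against 8.60, 8.70, 8.80 and 8.81 on the vehicle arrays at 0, 3, 6 and 12 h. All NaF arrays lay below all vehicle arrays, the change at 6 h was -0.53 ± 0.10 (limma, adjusted p = 0.00955), and the change at 12 h was not called (adjusted p = 0.111, and 0.0361 without the vehicle array of 0 h). Sf3b1, which holds the branch point and is the target of splicing inhibitors, rose slightly at 12 h on both tested probe sets, by 0.20 ± 0.06 and 0.21 ± 0.06 (adjusted p = 0.0246 and 0.0197), and the brighter one was not called without the vehicle array of 6 h (adjusted p = 0.0703). Sf3b4 had a change of -0.28 ± 0.07 at 12 h (adjusted p = 0.0171), and Sf3b5 was called at 3 h alone, where its change was -0.29 ± 0.06 (adjusted p = 0.0393).

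The Sm proteins and the U1 and U2 proteins with Snrp symbols had lower calls and no higher calls. Of 9 tested probe sets of 9 genes 0 were called at 3 h, 4 were called lower at 6 h (44.4%, against 21.8% of all tested probe sets) and 4 at 12 h (44.4%, against 30.9%), and the median same-time differences were -0.13, -0.21 and -0.08. Snrpd1, a subunit of the Sm ring, read 9.94, 9.17 and 9.87 on the NaF arrays at 3, 6 and 12 h, against 10.12, 10.18, 10.08 and 10.09 on the vehicle arrays at 0, 3, 6 and 12 h (1383107_at). The 6 h NaF array stood far below the other 6 arrays, at 0.534 of the vehicle level, and the 12 h array was 0.22 below vehicle 12 h. The change was -0.94 ± 0.07 at 6 h (adjusted p = 0.000674, limma) and -0.25 ± 0.07 at 12 h (adjusted p = 0.0209). An untested, dimmer probe set of Snrpd1 (1379320_at) showed differences of -0.03, -0.67 and 0.04 at 3, 6 and 12 h, also lowest at 6 h.

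Snrpd3, the Sm subunit that pairs with Snrpb, stayed low. It read 11.15, 10.87 and 10.78 on the NaF arrays at 3, 6 and 12 h, against 11.42, 11.33, 11.36 and 11.33 on the vehicle arrays at 0, 3, 6 and 12 h. No NaF array overlapped the vehicle arrays, and the change was -0.49 ± 0.07 at 6 h (adjusted p = 0.00342, limma) and -0.58 ± 0.07 at 12 h (adjusted p = 0.000976). Snrpb fell less, with changes of -0.20 ± 0.06 at 6 h and -0.20 ± 0.06 at 12 h (adjusted p = 0.0423 and 0.0287). The other Sm subunits Snrpd2, Snrpe and Snrpf were not called, with same-time differences from -0.13 to 0.18. Of these, Snrpe had every NaF array (12.62, 12.70 and 12.69 at 3, 6 and 12 h) above every vehicle array (12.51 to 12.59).

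Snrpa and Snrnp70 are proteins of the U1 snRNP, which recognizes the 5′ splice site, and both were lowest at 6 h. Snrpa read 9.07, 8.56 and 8.98 on the NaF arrays at 3, 6 and 12 h, against 9.26, 9.38, 9.29 and 9.39 on the vehicle arrays at 0, 3, 6 and 12 h. All 3 NaF arrays lay below the 4 vehicle arrays, and the change was -0.77 ± 0.08 at 6 h (adjusted p = 0.00145, limma) and -0.35 ± 0.08 at 12 h (adjusted p = 0.00946). Snrnp70 read 10.02, 9.69 and 10.28 on the NaF arrays at 3, 6 and 12 h, against 10.28, 10.29, 10.30 and 10.34 on the vehicle arrays at 0, 3, 6 and 12 h. Its vehicle arrays lay between 10.28 and 10.34, its 3 and 6 h NaF arrays lay below them, and its 12 h NaF array was inside their range. The change was -0.28 ± 0.06 at 3 h (limma, adjusted p = 0.0442), -0.61 ± 0.06 at 6 h (adjusted p = 0.00144) and -0.02 ± 0.06 at 12 h (adjusted p = 0.817). The U2 proteins Snrpa1 and Snrpb2 were not called at any time.

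The remaining snRNP subunits, 7 tested probe sets of 6 genes, included the largest same-time difference of any tested member at 12 h. Snrnp48, a protein of the U11/U12 di-snRNP that serves minor introns, read 7.75, 8.13 and 8.76 on the NaF arrays at 3, 6 and 12 h, against 7.16, 7.71, 7.56 and 7.66 on the vehicle arrays at 0, 3, 6 and 12 h. The vehicle arrays themselves spread by 0.54, the lowest being that of 0 h, and the 3 h NaF array lay only 0.04 above the vehicle array of its time. At 12 h the NaF array was 2.15 times vehicle 12 h, with a change of 1.24 ± 0.21 (limma, adjusted p = 0.00382). Snrnp25, of the same di-snRNP, had same-time differences from -0.10 to 0.17 over its 2 probe sets and was not called. Snrnp40, a U5 protein, rose at 12 h by 0.21 ± 0.07 (adjusted p = 0.0383), a call that was lost on leaving out any vehicle array (adjusted p 0.0513 to 0.0784), and the U5 helicase Snrnp200 was not called.

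**Figure D2:**
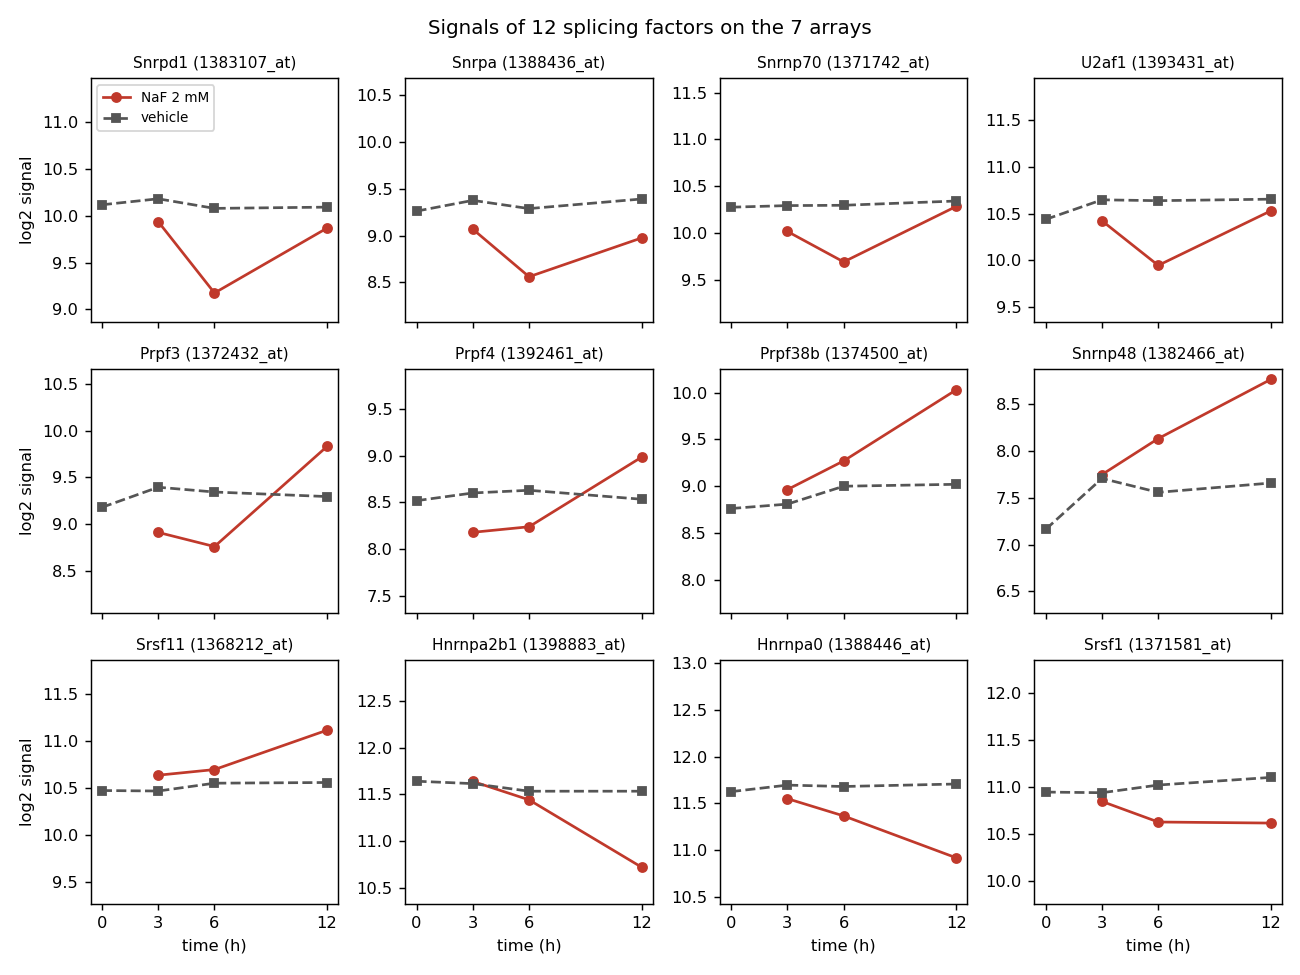
Log2 signals of 12 splicing factors by time in h, with NaF in red circles and vehicle in grey squares, 1 array of pooled RNA per point and the same span on every vertical axis. Snrpd1, Snrpa, Snrnp70 and U2af1 were lowest at 6 h of NaF, Prpf3 and Prpf4 crossed from below to above vehicle by 12 h, and Hnrnpa2b1 and Hnrnpa0 were lowest at 12 h.

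The PRPF proteins, most of which act in the U4/U6.U5 tri-snRNP or at spliceosome activation, held the most rises relative to their number. Of 15 tested probe sets of 11 genes 0 were called higher and 2 lower at 3 h (0% and 13.3%, against 2.97% and 6.11% of all tested probe sets). At 6 h 2 were called higher and 4 lower (13.3% and 26.7%, against 17.3% and 21.8%). At 12 h 11 were called higher and 1 lower (73.3% and 6.67%, against 30.0% and 30.9%). Prpf38b and Prpf4b each gave 3 of these 11, so the share counts probe sets and not genes. Their median same-time difference was -0.04 at 3 h, -0.07 at 6 h and 0.54 at 12 h, beside 0.00 over all tested probe sets at 12 h. Prpf38b, related to the activation factor Prpf38a, gave like values on 3 probe sets, with differences of 1.01, 1.03 and 0.97 at 12 h. The brightest of them (1374500_at) read 8.96, 9.27 and 10.03 on the NaF arrays at 3, 6 and 12 h, against 8.76, 8.81, 9.0 and 9.02 on the vehicle arrays at 0, 3, 6 and 12 h. The 12 h NaF array lay above every other array, and the change was 1.13 ± 0.12 (limma, adjusted p = 0.000809). A second one (1379691_at) read 8.40, 8.74 and 9.42 on the NaF arrays at 3, 6 and 12 h, against 8.34, 8.29, 8.32 and 8.39 on the vehicle arrays at 0, 3, 6 and 12 h, with every NaF array above every vehicle array. Its change at 6 h, 0.41 ± 0.06, was called (limma, adjusted p = 0.00595), as was that at 12 h, 1.08 ± 0.06 (adjusted p = 0.000212).

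Prpf38a itself read 8.78, 8.87 and 9.42 on the NaF arrays at 3, 6 and 12 h, against 8.64, 8.78, 8.66 and 8.70 on the vehicle arrays at 0, 3, 6 and 12 h. It rose at 12 h by 0.72 ± 0.08 (limma, adjusted p = 0.000757) and its 3 h NaF signal equalled that of the vehicle array. Prpf39, a U1-associated protein in yeast, rose at 12 h by 0.55 ± 0.08 (adjusted p = 0.00243), with NaF arrays of 3 and 6 h inside the vehicle range.

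Prpf3 and Prpf4 bind each other in the U4/U6 snRNP, and each crossed its vehicle level. Prpf3 (1372432_at) read 8.91, 8.76 and 9.83 on the NaF arrays at 3, 6 and 12 h, against 9.18, 9.40, 9.34 and 9.30 on the vehicle arrays at 0, 3, 6 and 12 h. The 3 and 6 h NaF arrays were below all vehicle arrays and the 12 h array above them. The change was -0.39 ± 0.09 at 3 h (limma, adjusted p = 0.0613), -0.54 ± 0.09 at 6 h (adjusted p = 0.00764) and 0.53 ± 0.09 at 12 h (adjusted p = 0.00464). Prpf4 read 8.18, 8.24 and 8.98 on the NaF arrays at 3, 6 and 12 h, against 8.52, 8.60, 8.63 and 8.53 on the vehicle arrays at 0, 3, 6 and 12 h. It likewise lay outside the vehicle range on every NaF array, with changes of -0.39 ± 0.07, -0.33 ± 0.07 and 0.41 ± 0.07 at 3, 6 and 12 h (limma, adjusted p = 0.0297, 0.0155 and 0.00411).

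Prpf4b, a kinase that phosphorylates tri-snRNP proteins, had the largest fall of any tested member. Its probe set 1376010_at read 8.76, 8.09 and 9.66 on the NaF arrays at 3, 6 and 12 h, against 9.26, 9.38, 9.30 and 9.25 on the vehicle arrays at 0, 3, 6 and 12 h. At 6 h the NaF array was at 0.433 of the vehicle level, and at 12 h it was 1.33 times that level. The change was -0.53 ± 0.07 at 3 h (limma, adjusted p = 0.0144), -1.21 ± 0.07 at 6 h (adjusted p = 0.000534) and 0.36 ± 0.07 at 12 h (adjusted p = 0.00819). The brightest probe set of Prpf4b (1397203_at) did not show the dip, with same-time differences of -0.19, -0.07 and 0.62, and its rise at 12 h (adjusted p = 0.0293) was not called without the vehicle array of 6 h (adjusted p = 0.0767).

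Prpf6 and Prpf8 are core tri-snRNP proteins, and Prpf8 sits at the center of the spliceosome. Prpf6 read 9.05, 8.67 and 9.20 on the NaF arrays at 3, 6 and 12 h, against 9.25, 9.27, 9.17 and 9.28 on the vehicle arrays at 0, 3, 6 and 12 h and fell at 6 h by 0.57 ± 0.07 (limma, adjusted p = 0.00259), while at 12 h it was not called. Prpf8 had same-time differences of -0.05, -0.30 and -0.05 and was not called. Prpf19, a ubiquitin ligase that gives its name to a core spliceosomal complex, was the sole PRPF gene called lower at 12 h. It read 10.26, 10.13 and 9.66 on the NaF arrays at 3, 6 and 12 h, against 10.13, 10.30, 10.27 and 10.27 on the vehicle arrays at 0, 3, 6 and 12 h, and only the 12 h NaF array lay below all vehicle arrays (change -0.58 ± 0.08, adjusted p = 0.00211).

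The difference between late and intermediate times was tested directly on the NaF arrays. From the 12 h NaF array against the 6 h NaF array, 33 of the 89 members were called higher (37.1%, against 21.8% of all tested probe sets) and 6 lower (6.74%, against 18.9%). The 33 were 11 PRPF, 7 SR, 7 hnRNP, 3 SF3, 2 Snrp and 2 Snrnp probe sets and U2af1. The largest was Prpf4b (1376010_at), at 1.57 ± 0.09 (limma, adjusted p = 0.00223), followed by Prpf3 at 1.07 ± 0.12 (adjusted p = 0.00304). Snrpd1 was 0.69 ± 0.08 higher at 12 h than at 6 h (adjusted p = 0.00369), Snrnp70 0.59 ± 0.08 (adjusted p = 0.00422) and U2af1 0.58 ± 0.13 (adjusted p = 0.0173). The 6 that were lower belonged to Hnrnpa0, Hnrnpa1 (1387872_at), Hnrnpa2b1, Hnrnpll, Hnrnpm and Prpf19. Hnrnpa2b1 differed most, at -0.72 ± 0.09 (adjusted p = 0.00398). Srsf1 and Snrpd3 were called in neither direction in this contrast (adjusted p = 0.945 and 0.426). Without the low-signal filter 17 members were called higher. Against the 3 h NaF array, the 12 h NaF array was higher in 28 members (31.5%, against 25.4% of all tested probe sets) and lower in 12 (13.5%, against 23.8%).

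**Figure D3:**
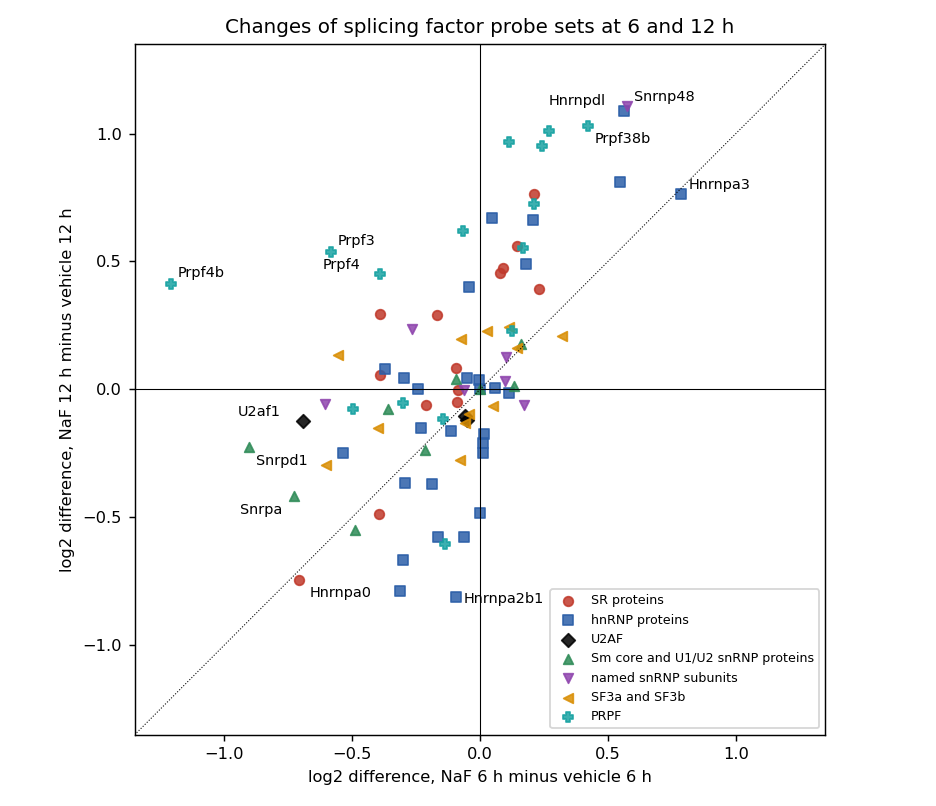
Same-time log2 difference at 12 h against that at 6 h for the 89 tested splicing factor probe sets, with a symbol for each protein group and a dotted line where the differences are equal. Prpf4b (-1.21 at 6 h and 0.41 at 12 h), Prpf3 and Prpf4 lay in the upper left, Snrpd1, Snrpa and U2af1 to the left and above the line, and Hnrnpa2b1 and Hnrnpa0 below it.

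Probe sets of 1 gene did not always move alike. Of 17 genes with 2 or more tested probe sets, 5 disagreed by the rule, meaning that probe sets were called in opposite directions at the same time or that their same-time differences were more than 1 apart. Opposite calls occurred in Hnrnpa1, Hnrnpa3 and Prpf4b, and Hnrnpdl had a gap of 1.05 at 12 h. Hnrnpu met the rule only through 1372823_at, which was itself tested only through its NaF signal, and without that probe set 4 genes disagreed. Where each probe set lies in its transcript is not given in the sources used here, so these values name probe sets and not isoforms.

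Hnrnpa1, the most studied splicing repressor of the family, read 11.32, 11.31 and 10.79 on the NaF arrays at 3, 6 and 12 h, against 11.41, 11.33, 11.38 and 11.37 on the vehicle arrays at 0, 3, 6 and 12 h on its brightest probe set (1387872_at). Only the 12 h NaF array lay far below the others, with a change of -0.58 ± 0.06 (limma, adjusted p = 0.000805). Probe set 1375612_at read 8.98, 8.69 and 8.42 on the NaF arrays at 3, 6 and 12 h, against 9.10, 9.23, 8.99 and 9.09 on the vehicle arrays at 0, 3, 6 and 12 h and was called lower as well, with a change of -0.68 ± 0.10 at 12 h (adjusted p = 0.0023). Probe set 1372693_at of the same gene read 10.47, 10.55 and 11.21 on the NaF arrays at 3, 6 and 12 h, against 10.34, 10.44, 10.51 and 10.54 on the vehicle arrays at 0, 3, 6 and 12 h. There the 12 h NaF array was the highest of the 7, with a change of 0.75 ± 0.09 (adjusted p = 0.00123), so that the probe sets of Hnrnpa1 were 1.34 apart in their same-time differences at 12 h.

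In Hnrnpa3, a close relative of Hnrnpa1, probe set 1374405_at read 9.53, 9.77 and 9.87 on the NaF arrays at 3, 6 and 12 h, against 8.89, 8.87, 8.98 and 9.11 on the vehicle arrays at 0, 3, 6 and 12 h. It was higher than every vehicle array at every time, and the changes were 0.57 ± 0.10, 0.81 ± 0.10 and 0.91 ± 0.10 (limma, adjusted p = 0.0308, 0.0031 and 0.00101). Its other tested probe sets had changes of -0.10 ± 0.07, -0.22 ± 0.06 and -0.19 ± 0.06 at 12 h, and the last 2 of these were called lower (adjusted p = 0.0213 and 0.0408). An untested, dim probe set (1394741_at) had differences of -0.14, 0.61 and 0.69.

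Hnrnpu, a scaffold protein that binds chromatin and pre-mRNA, was called lower at 6 h on both probe sets that the vehicle signal alone would have kept. Its brightest probe set (1370170_at) read 11.72, 11.62 and 12.10 on the NaF arrays at 3, 6 and 12 h, against 12.05, 11.91, 11.99 and 12.02 on the vehicle arrays at 0, 3, 6 and 12 h and was not called at 12 h (adjusted p = 0.0126 at 6 h). Probe set 1370171_at changed by -0.34 ± 0.07 after 6 h and by -0.39 ± 0.07 after 12 h (adjusted p = 0.0159 and 0.00564). The dim probe set 1372823_at read 7.06, 7.51 and 7.86 on the NaF arrays at 3, 6 and 12 h, against 6.79, 6.64, 6.97 and 7.05 on the vehicle arrays at 0, 3, 6 and 12 h, and because it entered the tested set through its NaF signal these are values only. In Prpf4b, probe set 1382646_at read 7.28, 7.35 and 8.13 on the NaF arrays at 3, 6 and 12 h, against 7.11, 7.07, 7.11 and 7.18 on the vehicle arrays at 0, 3, 6 and 12 h, and its change at 6 h, 0.23 ± 0.07, was called higher (adjusted p = 0.0385) where 1376010_at was called lower. At 12 h the Prpf4b probe sets were all called higher. The second probe set of Hnrnpdl (1371333_at) had differences of 0.04, -0.05 and 0.04 and was not called, unlike 1372810_at.

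**Figure D4:**
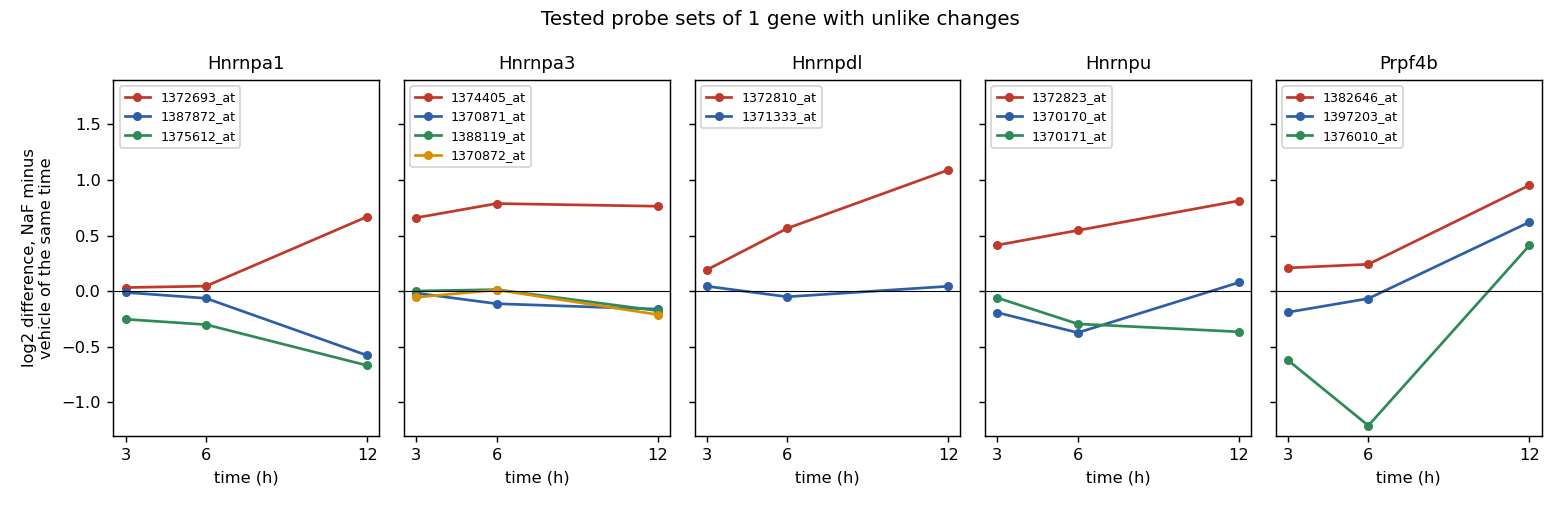
Same-time log2 differences (NaF minus vehicle) at 3, 6 and 12 h for each tested probe set of the 5 genes whose probe sets disagreed by the rule, Hnrnpu only through 1372823_at. In Hnrnpa1 1 probe set stood at 0.67 and another at -0.67 at 12 h, and in Prpf4b 1 stood at 0.24 and another at -1.21 at 6 h.

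When the 3 NaF arrays were compared as a group with the 4 vehicle arrays, the spread between NaF times entered the test. Then 1 member was called higher (1.12%, against 4.54% of all tested probe sets), Hnrnpa3 (1374405_at, limma, adjusted p = 0.0146), and 2 were called lower (2.25%, against 4.53%), Srsf1 (1374072_at, adjusted p = 0.0291) and Snrpd3 (adjusted p = 0.0439). No member was called in either direction with time as a replicate block (3, 6 and 12 h arrays), and counts here moved with single arrays. There were 7 higher and 9 lower calls without the 3 h NaF array, 2 and 12 without the 12 h NaF array, 0 and 0 without the 6 h NaF array or without the vehicle array of 0, 3 or 6 h, and 1 and 0 without the vehicle array of 12 h. Without a test, the NaF arrays lay wholly above the vehicle arrays in 10 members (11.2%, against 14.8% of all tested probe sets) and wholly below in 18 (20.2%, against 15.1%). The 10 include the Hnrnpu probe set 1372823_at, which was tested only through its NaF signal.

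Other splicing genes gave the setting. Of 35 tested probe sets of 19 genes for SR protein kinases and SR-related proteins, 1 was called higher and 4 lower after 3 h (2.86% and 11.4%, against 2.97% and 6.11% of all tested probe sets). Calls were 4 and 13 after 6 h (11.4% and 37.1%, against 17.3% and 21.8%) and 16 and 5 after 12 h (45.7% and 14.3%, against 30.0% and 30.9%). Clk4 and Clk1 phosphorylate SR proteins. Clk4 read 8.88, 9.43 and 9.44 on the NaF arrays at 3, 6 and 12 h, against 8.09, 8.13, 8.17 and 8.18 on the vehicle arrays at 0, 3, 6 and 12 h and was higher from 3 h on (limma, adjusted p = 0.00409, 0.000429 and 0.000174). Clk1 rose by 1.01 ± 0.20 at 12 h (adjusted p = 0.00704), as did Luc7l, related to a yeast U1 protein, by 1.16 ± 0.13 (adjusted p = 0.000968). A further list held 37 probe sets of 33 other spliceosome factors, among them those of the Prpf19 complex and of the catalytic steps. Calls were 0 higher and 4 lower after 3 h (0% and 10.8%), 5 and 8 after 6 h (13.5% and 21.6%), and 23 and 3 after 12 h (62.2% and 8.11%). Smndc1, Xab2 and the cyclophilin Ppih had 12 h changes of 0.75 ± 0.06, 0.74 ± 0.08 and -0.71 ± 0.09 (adjusted p = 0.000358, 0.000826 and 0.0016).

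The LSm proteins and the SMN complex, which loads the Sm ring onto snRNA, had 18 tested probe sets of 17 genes. Calls were 0 higher and 6 lower after 3 h (0% and 33.3%, against 2.97% and 6.11% of all tested probe sets). They were 0 and 9 after 6 h (0% and 50.0%, against 17.3% and 21.8%) and 4 and 6 after 12 h (22.2% and 33.3%, against 30.0% and 30.9%). Median same-time differences were -0.26, -0.31 and 0.00 at 3, 6 and 12 h. Coil, called lower at 3 and 6 h, was tested only through its NaF signal. Gemin7, an SMN complex subunit, read 8.33, 8.18 and 8.75 on the NaF arrays at 3, 6 and 12 h, against 9.32, 9.27, 9.34 and 9.35 on the vehicle arrays at 0, 3, 6 and 12 h. It was lower at each time (limma, adjusted p = 0.0024, 0.000487 and 0.00093), with no overlap between NaF and vehicle arrays. Ddx20, its helicase subunit, was lower at 3 h (adjusted p = 0.0424) and higher at 12 h (adjusted p = 0.00854), and Lsm1, which acts in cytoplasmic mRNA decay, rose at 12 h (adjusted p = 0.000916). Among 46 probe sets of 27 alternative splicing regulators 1 was called higher and 6 lower at 3 h (2.17% and 13.0%, against 2.97% and 6.11% of all tested probe sets). At 6 h 7 were higher and 14 lower (15.2% and 30.4%, against 17.3% and 21.8%), and at 12 h 12 were higher and 9 lower (26.1% and 19.6%, against 30.0% and 30.9%). The 3 genes of largest size of difference at 12 h, Sfpq, Pspc1 and Matr3, had changes of -0.63 ± 0.12, -0.70 ± 0.06 and -0.64 ± 0.06 (adjusted p = 0.00593, 0.00047 and 0.000637), and among the higher ones Ewsr1 and Ddx5 had changes of 0.39 ± 0.07 and 0.38 ± 0.07 (adjusted p = 0.00389 and 0.00492). Of 12 probe sets of 8 exon junction complex and cap-binding genes, calls after 12 h were 3 higher and 0 lower (25% and 0%), among them Rbm8a and Upf3b (adjusted p = 0.0044 and 0.00734), while Magoh was not called (adjusted p = 0.13).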

How the data were processed

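The 7 arrays of ROE2 cells each measured RNA pooled from 3 independent experiments (RNA integrity numbers of 9.5 to 10 per the labels). Scanned intensities of biotin-labeled cRNA were processed by the authors with GeneSpring GX. The version and the normalization method were not given in the sources used here. What the authors deposited is a log2 signal for each probe set, normalized between arrays, and no further scaling was applied. The array at 0 h carried no time in its label and was taken as vehicle at 0 h from the methods. In the platform annotation used for names, 20832 probe sets had 1 symbol, 436 several and 9831 none. No probe-level data were used, so the number of arrays limits the precision.

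The lmFit and eBayes functions of limma 3.58.1 (R 4.3.3) were run on the probe sets of highest maximum signal, as many as the study counted as expressed, with Benjamini-Hochberg adjustment over all of them. The median SE of a member at one time was 0.07, with 3 residual and 2.68 prior degrees of freedom. The fits were tested on simulated data in which every array was drawn with the spread of the vehicle arrays. Such data cannot show whether a NaF array varies as the vehicle arrays do. Replicate numbers of the arrays named times and did not pair experiments. In 17 tested members (19.1%, against 23% of all tested) the deposited value was exactly equal on 2 or more arrays.

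The members, gene lists and tests were chosen with earlier results of these data known. Genes were named at their tested probe set of highest mean signal. They were the 12 largest rises and falls called at 12 h, the 5 largest called at 3 and 6 h, the 2 largest of each protein group at 12 h, all genes with disagreeing probe sets, 10 well known members (Srsf1, Srsf2, Srsf3, Hnrnpa1, Hnrnpa2b1, Snrnp70, Sf3b1, Prpf8, U2af1, U2af2) and up to 3 genes of each other list. Sf3a1, Sf3b3, Prpf6, Snrpb, Srsf10, Ewsr1, Ddx5 and the members given as not called were named in addition, after their values were seen. Alternatives were other scalings, filters, variance models, baselines and fold thresholds, the mean of the probe sets of a gene, time as a block and each array left out. A NaF array was left out only where the NaF arrays were compared as a group.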

Additional observations from a re-analysis of the deposited data

Results flagged for a closer look

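In 23 of the 36 named members with a tested probe set, the NaF arrays of 12 h and 3 h differed in a direct limma test at the brightest probe set. Most of these genes were named for a called change at 12 h, so this count is a description, and over all tested probe sets 25.4% were higher and 23.8% lower in the same comparison. The 12 h minus 3 h differences were above 0 for Prpf38b (1.07), Snrnp48 (1.02), Prpf3 (0.92), Prpf4 (0.80), Hnrnpdl (0.79), Hnrnph3 (0.67), Hnrnpc (0.65), Prpf38a (0.64), Srsf4 (0.61), Prpf39 (0.51), Prpf4b (0.49), Srsf11 (0.48), Hnrnpu (0.38), Snrnp40 (0.37) and Snrnp70 (0.27). They were below 0 for Hnrnpa2b1 (-0.92), Hnrnpa0 (-0.63), Hnrnpll (-0.60), Prpf19 (-0.60), Hnrnpa1 (-0.53), Hnrnpm (-0.44), Snrpd3 (-0.37) and Hnrnpul1 (-0.35).

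Among the 4 vehicle arrays, 1 array stood apart from the other 3 in 3 of these 36 members, judged by the gap relative to the range. U2af1 was low at 0 h (10.44, against 10.64 to 10.65). Gaps were small in Sf3b1, low at 6 h (11.80, against 11.83), and in Hnrnpll, high at 3 h (9.08, against 9.02 to 9.03). The rule takes no account of the size of the gap. Vehicle values of Sf3b1 and Hnrnpll were exactly equal on more than 1 array, so no chance rate is given.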

How the results depend on the processing

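Counts of calls at 12 h against vehicle stayed within 1.5 times their value under the alternatives run, and those at 3 h did not. Higher and lower calls at 3 h numbered 2 and 8 after quantile normalization, 2 and 9 with a variance trend and 0 and 0 without the low-signal filter, and there were 2 lower calls with array medians set equal. Higher calls at 6 h numbered 10 after quantile normalization and 10 with the trend. Without the filter 17 members were called higher at 12 h than at 6 h of NaF, and over the 3 NaF arrays 2 were called higher and 1 lower. With time as a replicate block (3, 6 and 12 h arrays) that comparison gave 0 and 0. Past 1.5-fold, quantile normalization gave 0 lower at 3 h, 3 higher at 6 h and 8 lower at 12 h, no filter gave 3 higher at 3 h and 3 at 6 h, and the vehicle mean as baseline gave 0 higher and 0 lower at 3 h and 3 higher at 6 h. At 2.5-fold all 6 counts were 0.

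With each vehicle array left out in turn, higher and lower calls ranged over 0 to 1 and 0 to 4 at 3 h, 3 to 7 and 18 to 23 at 6 h, 22 to 27 and 16 to 20 at 12 h, and 23 to 32 and 6 to 7 for 12 h against 6 h of NaF. Over the 3 NaF arrays, with each vehicle or NaF array left out, they ranged over 0 to 7 and 0 to 12. Most of the lowest counts came without the vehicle array of 6 h. Of 324 values of named members under alternatives, 305 kept direction and call. The 12 h change of Prpf8, near 0, became 0.006 with medians equal and ranged from -0.037 to 0.0152 with vehicle arrays left out, and that of Srsf2 became 0.0096 with medians equal and 0.0101 after quantile normalization and ranged from -0.0207 to 0.0181. Without the filter the 12 h calls of Prpf4b, Sf3b1, Sf3b4, Snrnp40 and Snrpd1 were lost (adjusted p 0.0528 to 0.0968). The filter changes how many probe sets share the adjustment, and the cause of the other shifts was not tested.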
